A study of Mus musculus with 4 samples.

Results

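The genes described are 9 integrin subunits of myoblasts, Itga3, Itga4, Itga5, Itga6, Itga7, Itgav, Itgb1, Itgb3 and Itgb5. They were chosen by gene symbol, and all 9 were found among the 23351 rows of the gene table. RNA was taken from primary satellite cells, which are muscle's resident stem cells, of C57BL/6 mice 6 to 8 weeks old, taken from the extensor digitorum longus, a muscle of the lower leg. The series title places the study in young females and asks how estrogen receptor β bears on muscle mass and on the multiplication of muscle stem cells. The Control group and the ERβ scKO group, in which ERβ (gene Esr2) was to be removed from satellite cells, hold 2 libraries each. The labels name neither the Cre driver of the deletion nor an inducing agent, nor whether the controls carry any of its alleles. The description numbers 305 and 332 occur in both groups without a statement of what they mark, and nothing says that the 2 libraries of a group come from separate animals, so p-values measure the spread between these libraries, which may be technical. Esr2 itself was at 0.234 and 0.202 FPKM in Control and was listed at 0 in both ERβ scKO libraries, a level too low to check the labels.

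Integrins are cell surface receptors made of an α and a β subunit that tie the matrix outside a cell to its actin cytoskeleton. The α subunit largely sets the ligand: α3, α6 and α7 with β1 bind laminins, α5 with β1 binds fibronectin, αv pairs with several β subunits and binds RGD-containing proteins such as vitronectin and osteopontin, and α4 with β1 binds VCAM-1 and fibronectin. In skeletal muscle α7β1 is the main laminin receptor beside dystroglycan, and β1 integrins are needed in mouse satellite cells and for myoblast fusion.

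The measure throughout is FPKM, fragments per kilobase of transcript relative to sequencing depth, which is scaled to gene length and so allows levels to be set side by side between genes. The step size of low FPKM values put the depth of the 4 libraries at 2700000 to 3100000 fragments. All 9 subunits had a mean of at least 1 FPKM over the 4 libraries and entered the comparison with 11201 genes in all. Markers of the labelled cell type were present: Pax7, Myf5, Myod1, Des, Cdh15 and Vcam1 together summed to 949 and 839 FPKM in Control against 888 and 862 in ERβ scKO. Of these, Des and Myod1 were highest, with means of 421 and 349 FPKM. Pax7 and Myf5 were lowest, at 10.6 and 15.5 FPKM. Genes of differentiating myocytes, Myog, Myh3, Mymk, Mymx, Actc1 and Ckm, summed to more in every library. Their sums were 1836 and 2908 FPKM in Control against 2516 and 2991 in ERβ scKO. Among 6 markers of blood cells the defining Ptprc was listed at 0 in 3 libraries and Itgb2 likewise, and the sum of all 6 was between 1.02 and 3.29 FPKM in every library. Bulk RNA cannot tell fewer cells of a type apart from less RNA per cell.

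The 9 subunits lay at 5 separate heights. Itgb1, the common β partner of the α subunits listed here, stood alone at the top with a mean of 338 ± 9.21 FPKM (SD over the 4 libraries). Itga6 and Itga7 followed at 103.0 ± 15.6 and 98.8 ± 7.40 FPKM, and their ranges over the libraries overlapped. Itgav, Itga5 and Itga3 formed the next height at 40.1 ± 1.59, 35.3 ± 15.8 and 28.0 ± 5.45 FPKM, with each overlapping its neighbour. Itgb5 and Itgb3 were at 6.98 ± 1.53 and 6.71 ± 3.64 FPKM and overlapped as well. Itga4 was lowest at 1.41 ± 0.370 FPKM, where 3 fragments on its longest annotated transcript correspond to 0.101 to 0.116 FPKM, and no library of Itga4 overlapped the range of Itgb3.

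**Figure D1:**
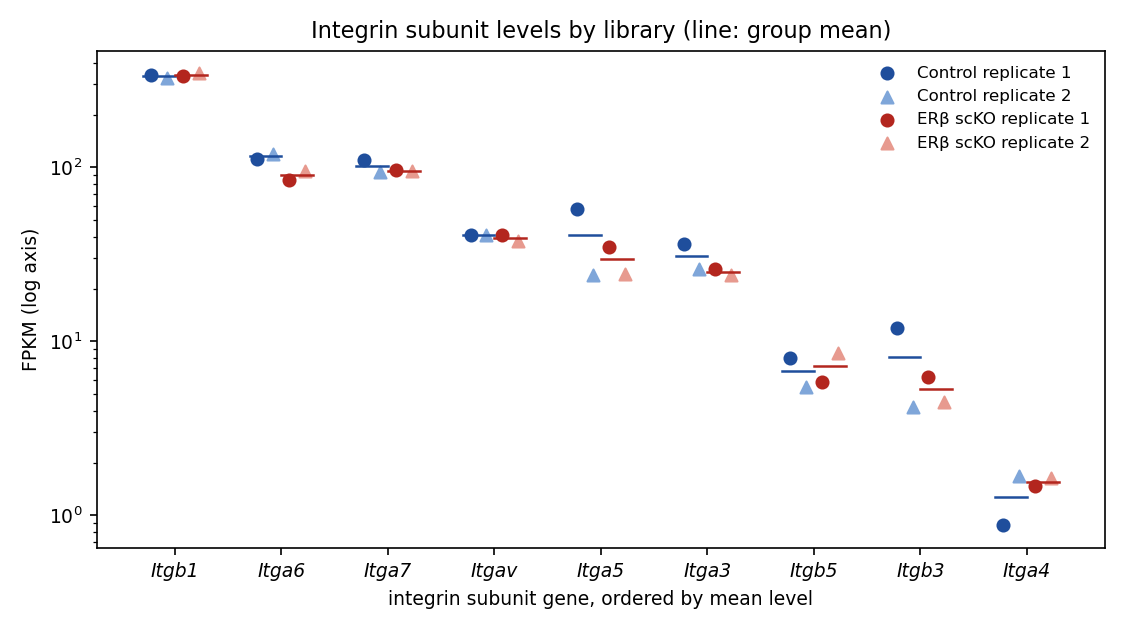
FPKM on a log axis of the 9 integrin subunits (horizontal axis, ordered by mean level) in the 2 Control (blue) and 2 ERβ scKO (red) libraries, with circles for replicate 1, triangles for replicate 2 and lines for group means. Itgb1 sits alone near 338 FPKM and Itga4 near 1.41, while the circles of Control replicate 1 stand above the other libraries for Itga5, Itga3 and Itgb3.

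The question set by the design was which subunits differed between ERβ scKO and Control. None of the 9 passed limma's test over all genes at an adjusted p of 0.05, which called 4 of 11201 genes (0.0357%). At limma's unadjusted p under 0.05 there was 1 member, Itga6, against 518 genes in all (4.62%). The authors' deposited table, which tested 8 of the 9, has 0 members at q under 0.05, where it calls 0 of 9426 genes (0%). At the authors' unadjusted p under 0.05 it has 2 members, Itgb3 and Itga5, both lower in ERβ scKO, against 3.25% of the tested genes in either direction and 1.92% in that direction. In 3 members, Itga6, Itga3 and Itgav, the ERβ scKO values were all below the Control values, a pattern held by 18.3% of all genes compared, and 0 members had both above, where the background is also 18.3%. With Control replicate 1 left out, 4 members had their ERβ scKO values below the remaining Control library, as had 33.5% of all genes, and 5 had them above it, as had 35.0%. The median log2 ratio of the 9, as the difference of group means of log2(FPKM + 1), ERβ scKO minus Control, was −0.08, beside −0.00 over all 11201 genes. Of the 9, 6 had a lower and 3 a higher mean, beside 5678 and 5523 of the 11201 genes. The median of the 9 was 0.04 without Control replicate 1 and −0.19 without Control replicate 2. With 2 libraries a group, an exact permutation test of a single gene cannot give a two-sided p below 0.333, so only the fit across all genes is used.

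Among the laminin-binding α subunits, Itga6 had the most even difference between the groups. Itga6 encodes the α6 chain, which pairs with β1 and with β4 (chromosome 2, 71787083 to 71856758 on mm10, plus strand, 26 exons in its longest transcript). Its levels were 112 and 119.6 FPKM in Control against 85.0 and 95.8 in the ERβ scKO libraries. The ERβ scKO pair lay entirely below the Control pair, and the gap between the groups was wider than the gap within either. The group means were 116 ± 5.72 FPKM in Control against 90.4 ± 7.63 in ERβ scKO (SD, n = 2 each), 21.8% lower. The log2 ratio was −0.35 with a standard error of 0.11 and a 95% interval of −0.63 to −0.08, and it missed limma's threshold (unadjusted p = 0.0200, adjusted p = 0.837, lower in 2 of 2 ERβ scKO libraries). The replicate 1 pair gave −0.39 and the replicate 2 pair −0.32. The authors' deposited table gives a log2 fold change of −0.35 with p = 0.0752 and q = 0.998. The nuclear RNAs Malat1 and Neat1, which can vary with RNA quality, split the libraries the same way in the opposite direction: Malat1 was at 63.5 and 115 FPKM in Control against 141 and 166 in ERβ scKO, and Neat1 at 79.8 and 90.8 against 129 and 143. Their part in the result was not tested.

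Itga7 encodes α7, the laminin receptor subunit most typical of skeletal muscle (chromosome 10, 128933813 to 128960988, plus strand, 25 exons). Its levels were 109.7 and 93.6 FPKM in Control against 96.3 and 95.5 in ERβ scKO. The ERβ scKO values lay inside the Control range and differed from each other by less than 1 FPKM. The log2 ratio of Itga7 was −0.08 with a 95% interval of −0.37 to 0.21 (limma adjusted p = 0.891), so a difference of more than 0.37 on that scale in either direction lies outside the interval. The replicate 1 pair gave −0.19, the replicate 2 pair 0.03, and leaving out Control replicate 1 gave 0.04.

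Itga3 encodes α3, a further laminin-binding chain (chromosome 11, 95044482 to 95076714, minus strand, 26 exons). It was at 36.1 and 26.03 FPKM in Control against 25.9 and 24.1 in ERβ scKO. The groups did not overlap, but Control replicate 2 exceeded the nearer ERβ scKO library by a fraction of 1 FPKM, and Control replicate 1 stood above the other 3 libraries. The log2 ratio was −0.29 with a standard error of 0.18 (limma adjusted p = 0.837), −0.46 in the replicate 1 pair, −0.11 in the replicate 2 pair −0.06 when Control replicate 1 was left out and −0.51 when Control replicate 2 was.

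Of the fibronectin and RGD receptors, Itga5 encodes α5, the α chain of the classical fibronectin receptor (chromosome 15, 103344286 to 103366748, minus strand, 31 exons). Its levels were 57.7 and 24.0 FPKM in Control against 35.0 and 24.5 in ERβ scKO. The replicate 2 libraries were nearly level, the replicate 1 libraries were higher in each group, and Control replicate 1 was 2.41 times as high as Control replicate 2. The group means of Itga5 were 40.8 ± 23.8 and 29.7 ± 7.47 FPKM, the log2 ratio was −0.34 with a standard error of 0.41, and limma did not call it (adjusted p = 0.873). Without Control replicate 1 the log2 ratio was 0.28 and without Control replicate 2 it was −0.95, while the replicate 2 libraries alone gave 0.03. The authors' deposited table gives p = 0.0319 and q = 0.998 for Itga5.

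Itgb3 encodes β3, the partner of αv in the classical vitronectin receptor (chromosome 11, 104608000 to 104670471, plus strand, 15 exons). It followed the same order of libraries at 11.99 and 4.18 FPKM in Control against 6.20 and 4.46 in ERβ scKO. As for Itga5, the libraries numbered 1 were higher and Control replicate 2 was the lowest of the 4. The log2 ratio of Itgb3 was −0.39 with a standard error of 0.44 (limma adjusted p = 0.864), and it became 0.28 when Control replicate 1 was left out and −1.05 when Control replicate 2 was; leaving out an ERβ scKO library gave −0.59 (replicate 1) or −0.19 (replicate 2). The replicate 1 pair gave −0.85 and the replicate 2 pair 0.08. The authors' deposited table gives p = 0.0207 and q = 0.998.

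Itgb3 and Itga5 had the largest spread of the 9 over the 4 libraries, an SD of 0.61 and 0.58 on the log2(FPKM + 1) scale. Each was the other's nearest neighbour among 91 adhesion and marker genes and subunits by the distance between their centred log2 values over the 4 libraries (0.11). Thy1, a fibroblast and stromal surface glycoprotein at 4.45 and 1.21 FPKM in Control against 2.59 and 1.42 in ERβ scKO, came second for both (0.19 from Itgb3 and 0.12 from Itga5). The authors' deposited table marks Thy1 as not tested, and its replicate 2 values were close to the minimum mean of 1 FPKM. Lamb3, a laminin β chain at 19.3 and 10.3 FPKM in Control against 13.4 and 9.38 in ERβ scKO, came next for both (0.35 and 0.27). Over 4 libraries these distances are a description.

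In 3 of the 9 members, Itga5, Itgb3 and Itga3, Control replicate 1 exceeded every other library by more than 1.3 times, against 8.52% of all genes compared. The same library had the highest sum of 6 fibroblast markers (Pdgfra, Col1a1, Col3a1, Dcn, Lum and Thy1), at 109 FPKM against 72.3 in Control replicate 2 and 73.1 and 64.5 in ERβ scKO, with Lum at 0 in every library. Col3a1, Col1a1, Thy1 and Pdgfra were each highest in Control replicate 1. Dcn was highest in ERβ scKO replicate 1, at 2.36 FPKM against 1.96 in Control replicate 1. The sum of 4 markers of pericytes and smooth muscle was lowest in Control replicate 1. It was 63.1 FPKM there, 66.6 in Control replicate 2 and 73.9 and 64.6 in ERβ scKO. Of these markers, Cspg4 and Pdgfrb were highest in Control replicate 1, Rgs5 was lowest there, and Myh11 was highest in ERβ scKO replicate 1. Control replicate 1 had the lowest sum of 6 genes of differentiating myocytes (Myog, Myh3, Mymk, Mymx, Actc1 and Ckm), at 1836 FPKM against 2908 in Control replicate 2 and 2516 and 2991 in ERβ scKO. GC content of the longest transcript was 57.3% for Itga5, 52.1% for Itgb3 and 57.9% for Itga3, beside a median of 49.6% over all genes compared. Members without that excess of Control replicate 1 reached similar GC content in Itga7 (57.8%) and Itgb5 (57.0%). Both were still higher in Control replicate 1 than in Control replicate 2. The rest were lower in GC content, with Itga6 at 48.9%, Itgb1 at 44.85%, Itgav at 43.55% and Itga4 at 41.1%. On log2(FPKM + 1), Control replicate 2 minus Control replicate 1 was −1.23, −1.33, −0.46, −0.23 and −0.48 for Itga5, Itgb3, Itga3, Itga7 and Itgb5. For Itga6, Itgb1, Itgav and Itga4 that difference was 0.10, −0.07, −0.01 and 0.51. After the dependence on GC content was subtracted from every library, the log2 ratios of Itga5, Itgb3 and Itga3 were −0.25, −0.37 and −0.18. The part of GC content, of other cells or of differentiation in these differences was not tested.

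**Figure D2:**
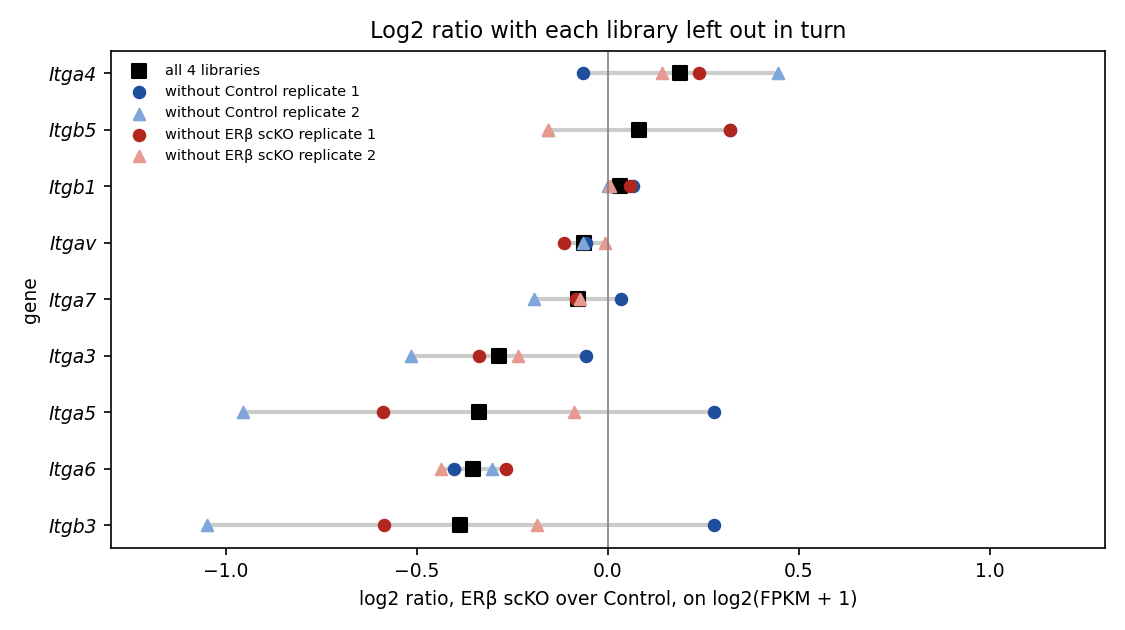
Log2 ratio of ERβ scKO over Control on log2(FPKM + 1) (horizontal axis) of each subunit with all 4 libraries (black squares) and with each library left out in turn (coloured points, joined by a grey line). Itga6 stays between −0.44 and −0.27, whereas Itga5 and Itgb3 run from −0.95 and −1.05 without Control replicate 2 to 0.28 without Control replicate 1.

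Itgav encodes αv, which pairs with β1, β3, β5 and others (chromosome 2, 83724397 to 83806916, plus strand, 30 exons). It was the steadiest of the α subunits, at 41.1 and 40.9 FPKM in Control against 40.8 and 37.8 in ERβ scKO. The groups did not overlap, but the margin between them was smaller than the gap within ERβ scKO. Its log2 ratio was −0.06 with a 95% interval of −0.34 to 0.21 (limma adjusted p = 0.91). Its partner Itgb5, which encodes β5 (chromosome 16, 33829665 to 33949338, plus strand, 15 exons), was at 8.02 and 5.49 FPKM in Control against 5.86 and 8.55 in ERβ scKO. The groups overlapped, and the log2 ratio of Itgb5 was −0.40 in the replicate 1 pair and 0.56 in the replicate 2 pair. On its longest annotated transcript these levels correspond to roughly 53 to 82 fragments a library, so that counting error weighs on them.

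Itgb1 encodes β1, the common partner of α3, α4, α5, α6, α7 and αv (chromosome 8, 128685654 to 128733579, plus strand, 16 exons). Its levels were 342 and 326 FPKM in Control against 335 and 348 in ERβ scKO. The groups overlapped, and the highest library was 1.07 times the lowest, the smallest such ratio of the 9. The log2 ratio of Itgb1 was 0.03 with a standard error of 0.09 and a 95% interval of −0.19 to 0.26 (limma adjusted p = 0.949).

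Itga4 encodes α4 (chromosome 2, 79255426 to 79428988, plus strand, 28 exons), and the authors' deposited table marks it as not tested. It was at 0.875 and 1.67 FPKM in Control against 1.47 and 1.64 in ERβ scKO, with Control replicate 1 lowest and the other 3 libraries close together. On its longest annotated transcript these levels correspond to roughly 23 to 50 fragments a library, so that counting error weighs on them as well. The log2 ratio of Itga4 was 0.19 with a standard error of 0.28 (limma adjusted p = 0.891) and −0.07 without Control replicate 1. The gene overlaps Cerkl on the opposite strand, and whether the authors counted by strand is not given in the sources used here, so reads of the pair may not be told apart. Itga7 overlaps Mettl7b on the opposite strand with the same limit. Further opposite-strand overlaps with noncoding genes and pseudogenes carry it too: Gm17250 and Gm13739 in Itga6, and Gm13684 and Dnmt3l-ps1 in Itgav. On the same strand lie Mir6963 in Itga5, Gm25494 in Itga7, and Gm13663 and Gm13662 in Itga6. Counting by strand would not tell these apart from the member. The ligand of α4β1 on neighbouring cells, Vcam1, was at 26.5 and 31.4 FPKM in Control against 28.2 and 28.6 in ERβ scKO.

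**Figure D3:**
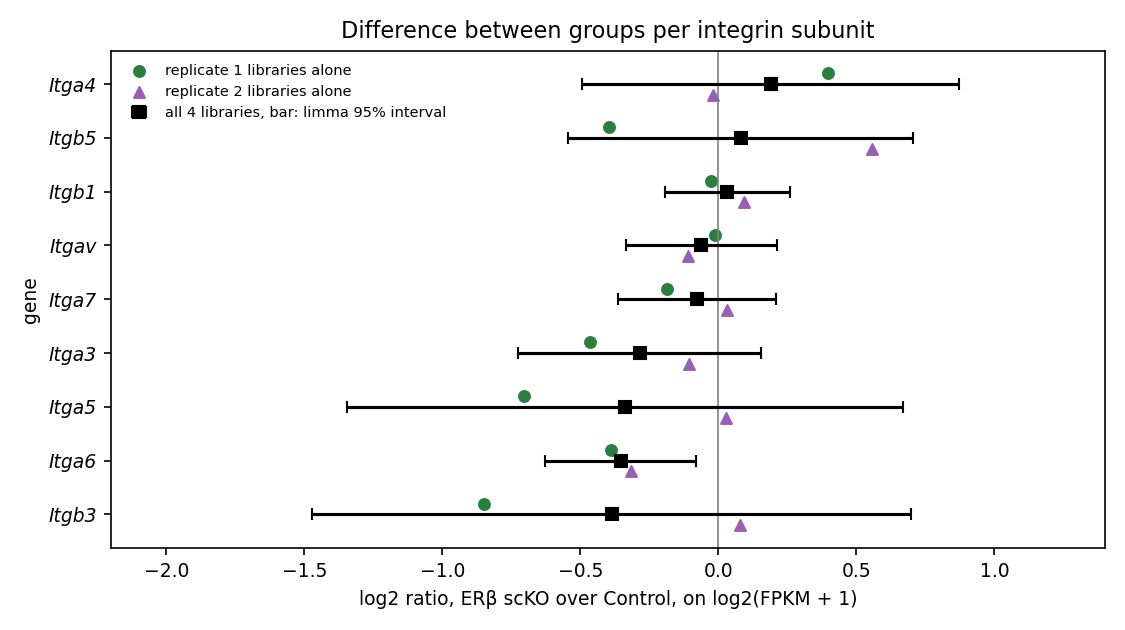
Log2 ratio of ERβ scKO over Control on log2(FPKM + 1) (horizontal axis) for each subunit, with black squares and bars for all 4 libraries and limma's 95% interval, and green circles and purple triangles for the replicate 1 and the replicate 2 libraries alone. The interval of Itga6 runs from −0.63 to −0.08 before adjustment over all genes and the other 8 include 0; the circle and the triangle lie on opposite sides of 0 for Itga4, Itgb5, Itgb1, Itga7, Itga5 and Itgb3.

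Summed over the family, the α sums of ERβ scKO were both below those of Control, while the β sums overlapped. The 18 α subunits of the table summed to 361 and 308 FPKM in Control against 288 and 282 in ERβ scKO. The 8 β subunits summed to 419 and 382 FPKM in Control against 400.3 and 412 in ERβ scKO. Control replicate 1 had the highest sum of each kind. The sum of α over the sum of β was 0.861 and 0.806 in Control and 0.72 and 0.684 in ERβ scKO; no test was run on these sums, since an exact permutation test could not go below 0.333. Without Control replicate 1 the difference of the α sums, ERβ scKO minus Control, was −22.8 FPKM and without Control replicate 2 it was −75.5, beside −49.1 with all 4 libraries.

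The make-up of the pool was dominated by few chains. Itga3, Itga6 and Itga7 together made 71.4% and 77.7% of all α FPKM in Control against 71.9% and 76.4% in ERβ scKO, so the share of laminin-binding α chains differed more between replicates than between groups. Itga5 and Itgav made 27.4% and 21.1% in Control and 26.3% and 22.1% in ERβ scKO. Within the laminin-binding chains, Itga7 was at 30.4% and 30.4% of α FPKM in Control against 33.4% and 33.9% in ERβ scKO, without overlap, while Itga6 was at 30.9% and 38.9% against 29.5% and 34.0%, with overlap. A share also moves with the α sum, which was lower in both ERβ scKO libraries. In FPKM, the ERβ scKO values of Itga7 lay inside the Control range. Itgb1 made between 81.6% and 85.4% of all β FPKM in every library. The second β chain by level was none of the 9: Itgb4, which encodes the β4 partner of α6 known from epithelial hemidesmosomes, was at 50.2 and 35.6 FPKM in Control against 43.1 and 41.98 in ERβ scKO, above Itgb3 and Itgb5 in every library.

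**Figure D4:**
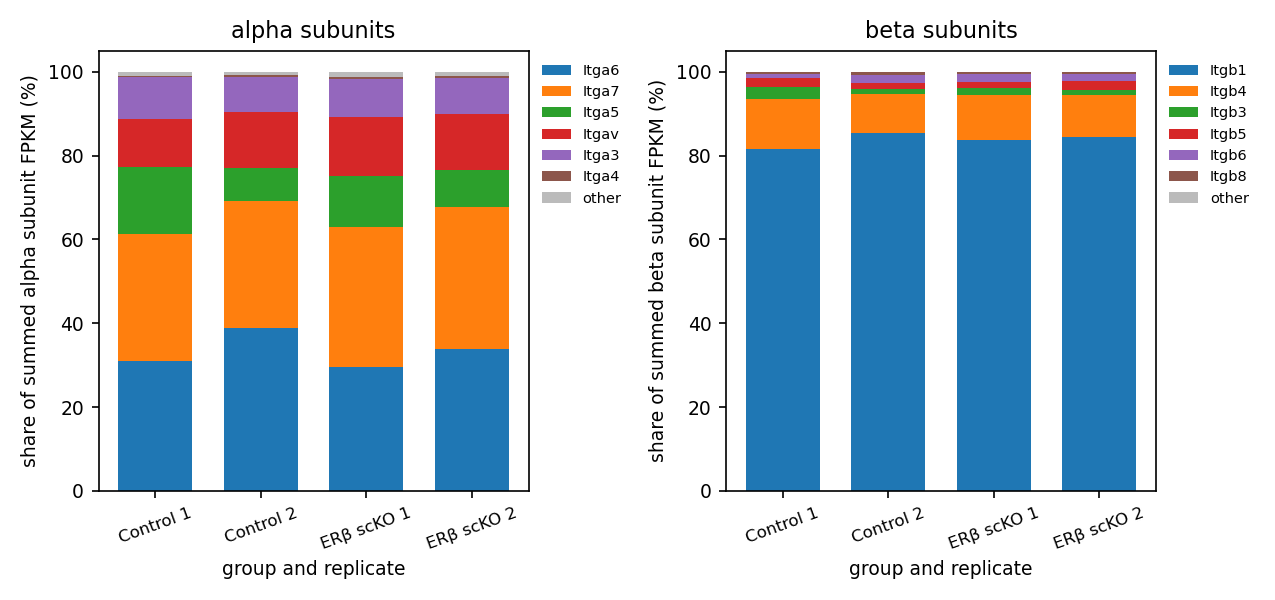
Share in percent of the summed FPKM of all α subunits (left) and all β subunits (right) taken by each subunit in each library, as stacked bars; chains not listed are grey. Itgb1 takes 81.6% to 85.4% of β, and Itga6 with Itga7 takes most of α in each library, with the Itga5 segment largest in Control replicate 1 (16.0%).

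Promoter sequences are shown for Itga5 and Itga3, the matched members whose highest library was Control replicate 1 by more than 1.3 times, beside Itgb1, which stayed level. RefSeq promoter sequences (GRCm38.p6, the patch release of mm10) matched 6 of the 9 members, all but Itga6, Itga7 and Itgb3. The windows are the 250 bases before the annotated start on the gene's strand, at chr15:103366792-103367041 (minus), chr11:95076715-95076964 (minus) and chr8:128685404-128685653 (plus). For Itga5 RefSeq's start lies 43 bases upstream of the gene start given above. Capitals mark matches on either strand to the GC box GGGCGG, bound by SP1 family factors, and to the TEAD motif GGAATG.
Itga5: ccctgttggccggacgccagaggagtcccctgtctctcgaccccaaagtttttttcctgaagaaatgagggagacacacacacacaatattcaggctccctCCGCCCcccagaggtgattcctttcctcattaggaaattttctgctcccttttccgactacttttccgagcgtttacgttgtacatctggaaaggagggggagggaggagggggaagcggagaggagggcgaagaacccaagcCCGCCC
Itga3: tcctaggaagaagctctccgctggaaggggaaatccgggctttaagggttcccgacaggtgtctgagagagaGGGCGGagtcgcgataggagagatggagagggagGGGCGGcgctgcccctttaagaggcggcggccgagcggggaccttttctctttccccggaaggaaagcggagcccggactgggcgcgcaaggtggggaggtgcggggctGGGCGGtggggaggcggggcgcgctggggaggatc
Itgb1: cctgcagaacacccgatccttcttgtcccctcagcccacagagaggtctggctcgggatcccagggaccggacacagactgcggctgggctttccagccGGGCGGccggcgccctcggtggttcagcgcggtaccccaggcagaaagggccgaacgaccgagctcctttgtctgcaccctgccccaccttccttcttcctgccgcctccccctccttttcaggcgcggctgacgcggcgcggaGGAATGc
The GC box had 2 matches in the Itga5 window, 3 in Itga3 and 1 in Itgb1, and 32.7% of the 32851 windows of the promoter table hold it. Of the matched members not shown, which lack the excess of Control replicate 1, Itgb5 had 3 matches, Itga4 1 and Itgav 0. The TEAD motif had 1 match, in Itgb1, next to the start, and 12.6% of windows hold it. The AP-1 motif TGANTCA (6.75% of windows), the SRF CArG box (1.47%) and the palindromic estrogen response element, GGTCA and TGACC on either side of 3 bases (0.0639%), had 0 matches in these 3 windows and in those of Itga4, Itgav and Itgb5. A match is a string of letters, not a site, and the absence of one says only that these letters are not in the window.

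The wider adhesion machinery was described by 6 lists of 82 genes other than the 9 members, of which 60 had a mean of at least 1 FPKM. Limma called 0 of the 60 over all genes, with 3 at unadjusted p under 0.05 beside 4.62% of all genes. The authors' deposited table has 3 of its 57 tested genes at p under 0.05, beside 3.25% of all tested, and 0 at q under 0.05. The ERβ scKO values were all below the Control values in 10 of the 60 (16.7%) and above in 11, near the 18.3% of all genes in each direction. As background for the counts of lower and higher means below, 5678 of the 11201 genes had a lower mean in ERβ scKO and 5523 a higher mean.

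Of 17 further integrin subunits only 3 passed 1 FPKM, Itgb4, Itgb6 and Itgb8. Itgb6, an αv partner typical of epithelia, was at 4.12 and 7.44 FPKM in Control against 7.37 and 7.82 in ERβ scKO, with Control replicate 1 apart from the rest. Itgb8, a further αv partner, was at 2.64 and 3.03 FPKM in Control against 2.31 and 1.52 in ERβ scKO. Neither passed limma's test (log2 ratios 0.39 and −0.41, adjusted p = 0.837 each). Itga9, a receptor chain for tenascin and osteopontin, was at 1.03 and 0.634 FPKM in Control against 0.791 and 0.696 in ERβ scKO, under the mean of 1 FPKM over the 4 libraries.

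Laminin chains, the ligands of α3, α6 and α7, had 6 of 7 measured genes with a lower mean in ERβ scKO and a median log2 ratio of −0.24, or −0.50 in the replicate 1 pair and 0.04 in the replicate 2 pair. That median was 0.07 with Control replicate 1 left out and −0.47 with Control replicate 2 left out. None of the 7 passed limma's adjusted threshold. Lama5, the α5 chain of laminins that α3β1 and α6β1 bind, was at 11.9 and 9.20 FPKM in Control against 7.53 and 6.80 in ERβ scKO. Its groups did not overlap and its log2 ratio was −0.59 and −0.39 in the 2 replicate pairs (limma adjusted p = 0.837; p = 0.0082 in the authors' deposited table). Lamc1, the common γ1 chain, was at 25.1 and 19.9 FPKM in Control against 17.4 and 18.3 in ERβ scKO, also without overlap. Lamb1, the most abundant laminin chain of the list, was at 118 and 98.2 against 104 and 102 FPKM, with overlap.

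Ligands of the RGD and other receptors had 10 of 12 measured genes with a lower mean and a median of −0.07, which was 0.12 with the first Control library left out and −0.26 with the second left out. In 5 of the 12 Control replicate 1 exceeded every other library by more than 1.3 times, against 8.52% of all genes compared. Spp1 encodes osteopontin, a secreted ligand of αv integrins, and was the most abundant, at 5705 and 6831 FPKM in Control against 7527 and 8939 in ERβ scKO. The ERβ scKO values of Spp1 were both above the Control values, with a log2 ratio of 0.39, a standard error of 0.14 and a limma adjusted p of 0.837. Fn1, the fibronectin that α5β1 binds, was at 349 and 265 FPKM in Control against 295 and 299.6 in ERβ scKO, with the ERβ scKO values inside the Control range. Thbs1 (thrombospondin 1) and Tnc (tenascin C) likewise lay inside the Control range, with log2 ratios of −0.03 and −0.13. Fbn1 (fibrillin 1) was at 28.3 and 20.9 FPKM in Control against 16.5 and 19.0 in ERβ scKO, without overlap (p = 0.0199 in the authors' deposited table, limma adjusted p = 0.837). Ctgf, a matricellular protein, was at 180 and 29.8 FPKM in Control against 89.2 and 31.4 in ERβ scKO, an order of libraries shared with Itga5 and Itgb3 (p = 0.0006 in the authors' deposited table, limma adjusted p = 0.913).

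Genes of the integrin activation list had a median log2 ratio of 0.07 over 9 measured genes, 3 with a lower and 6 with a higher mean. The median was 0.0024 when Control replicate 1 was dropped and 0.14 when Control replicate 2 was dropped. The list was not sorted by whether a gene promotes or restrains activation, so its median gives no direction of activation. Tln1 encodes talin 1, which binds β tails and activates integrins, and was at 73.8 and 53.6 FPKM in Control against 50.9 and 52.3 in ERβ scKO. Its groups did not overlap, and its log2 ratio was −0.53 in the replicate 1 pair and −0.03 in the replicate 2 pair. Itgb1bp2, which encodes the muscle protein melusin that binds the β1 tail, was at 34.6 and 55.7 FPKM in Control against 50.8 and 61.8 in ERβ scKO, with overlap. The GTPases Rap1a and Rap1b, which promote talin-dependent activation, had log2 ratios of 0.20 and 0.07.

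Adaptors of adhesion sites had 12 of 17 measured genes with a lower mean and a median of −0.14. That median was 0.0021 if Control replicate 1 is left out and −0.19 if Control replicate 2 is left out. Flna (filamin A), an actin crosslinker that binds β tails, was at 349 and 313 FPKM in Control against 290 and 285 in ERβ scKO, without overlap (log2 ratio −0.20, limma adjusted p = 0.837). Zyx (zyxin) was at 230 and 161 FPKM in Control against 161 and 141 in ERβ scKO, with its 2 middle libraries less than 1 FPKM apart. The α-actinins Actn1 and Actn4 had log2 ratios of −0.14 and −0.19 and overlapping groups.

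Surface partners, among them the tetraspanins that associate with α3, α6 and α7, had 8 of 12 genes with a higher mean and a median of 0.03, or 0.11 leaving out Control replicate 1 and −0.01 leaving out Control replicate 2. Cd63 and Cd81 were at 1242 ± 56.3 and 218 ± 5.84 FPKM in Control against 1307 ± 56.4 and 222 ± 11.4 in ERβ scKO (SD, n = 2 each). Cd151, the tetraspanin most closely tied to laminin-binding integrins, was at 109 and 85.9 FPKM in Control against 83.4 and 87.2 in ERβ scKO, with overlap. Cd44, a hyaluronan receptor that also binds osteopontin, was at 145 and 132 FPKM in Control against 159 and 157 in ERβ scKO, without overlap (log2 ratio 0.19, limma adjusted p = 0.837).

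**Figure D5:**
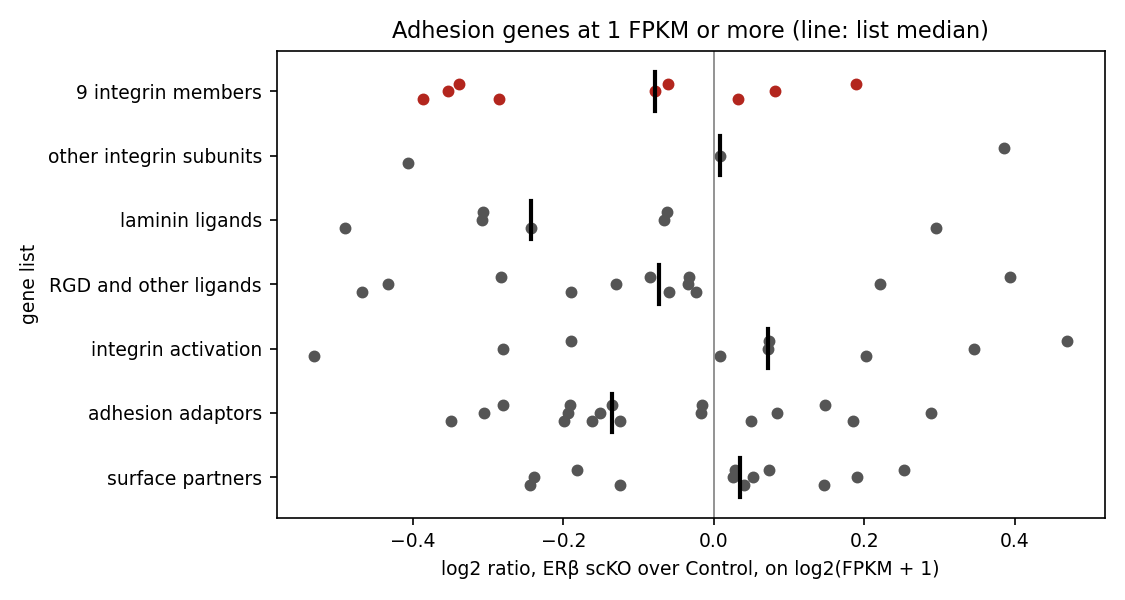
Log2 ratio of ERβ scKO over Control on log2(FPKM + 1) (horizontal axis) of each gene with a mean of at least 1 FPKM in 7 lists, with the 9 integrin members in red and black lines for list medians. With all 4 libraries, list medians run from −0.24 for laminin ligands (0.07 with Control replicate 1 left out) to 0.07 for integrin activation, and members lie between −0.39 and 0.19.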

How the data were processed

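Polyadenylated RNA of 2 Control and 2 ERβ scKO libraries was sequenced after a stranded library preparation, per the labels' protocols. Per the submitters' processing notes, the authors' tools were TopHat and Cufflinks and the build was mm10; versions and annotation are not given in the sources used here. The deposited gene table holds the authors' FPKM per gene and library, their group means, their log2 fold change and test score (the column names are those of a Cuffdiff table), and the authors' p-value and q-value. A second deposited sheet repeats part of these rows and was not used. FPKM values are not counts, so limma 3.58.1 (R 4.3.3) was run on log2(FPKM + 1), its prior variance following the mean level, for the 11201 genes that averaged 1 FPKM or more, at a Benjamini-Hochberg adjusted p of 0.05; the fit was tested on simulated data. Depth was estimated from whole-fragment steps of low values in genes with a single transcript longer than 1500 bases. Fragment estimates and floors cover counting error only. Lengths, exons and GC content came from GENCODE M21 (same build), which matched 92.6% of symbols. Members, though picked by symbol, and lists were chosen with earlier results of these data known. All 9 members are named; from each list the 4 genes of highest mean, those with the authors' p under 0.05, and other integrin subunits of at least 1 FPKM are named. Itga9 is among the 4 of highest mean in its list, and Vcam1 was named as the ligand of α4 after its values were seen. Alternatives were a pseudocount of 0.1 or 5, a minimum mean of 5 FPKM, no minimum, upper quartile scaling, median centring, no variance trend, replicate number as a block, each library left out, each replicate number alone and, chosen after seeing the data, removal of each library's GC trend (loess, span 0.5).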

Additional observations from a re-analysis of the deposited data

How the results depend on the processing

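Of the 9 members, limma called 0 under every alternative run, and 119 of 134 alternative log2 ratios of single members kept their direction. Itga6, Itga3 and Itgav kept theirs in all; Itga6 ranged from −0.44 to −0.27 with a library left out, and its adjusted p from 0.239 to 1 over all alternatives. The minimum mean, the replicate block and the variance trend do not enter a member's log2 ratio. Their part of the 134 ratios therefore kept its direction by construction. A fit that leaves out a library assumes that the lone library of that group varies like the other group. The other members changed sign somewhere, and the cause was not tested. Leaving out a library gave −1.05 to 0.28 for Itgb3, −0.95 to 0.28 for Itga5, −0.193 to 0.0352 for Itga7, −0.16 to 0.32 for Itgb5, −0.0007 to 0.0659 for Itgb1 and −0.0659 to 0.445 for Itga4. The replicate 2 libraries alone gave 0.077 for Itgb3, 0.0268 for Itga5, 0.0296 for Itga7 and −0.0178 for Itga4, and the replicate 1 libraries alone gave −0.395 for Itgb5 and −0.0268 for Itgb1. With the GC trend removed Itga7 was at 0.0253 and Itgb1 at −0.0192. With a minimum mean of 5 FPKM Itga4 could not be fitted. The members' median was −0.39 between the replicate 1 libraries. The count of all genes called went from 4 to 88 with no filter, 0 with the GC trend removed and 7 to 11 with a library left out; the authors' q called 0 genes, and their unadjusted p 306 genes, 2 members and 3 adhesion genes. Replicate number as a block called 6 genes and 0 members. The replicate numbers are shared but not said to pair the libraries, and with 2 pairs the deviations of same-numbered libraries correlated over genes at 0.211. With 2 libraries a group and 2700000 to 3100000 fragments each, single-gene differences of the sizes seen here are poorly resolved.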
